A study of Homo sapiens with 22 samples.

Results

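CDKN1A, CDKN1B, CDKN2A, CDKN2B, MDM2, TP53I3, GDF15 and BBC3 are 8 genes that either encode inhibitors of the cell cycle or are well-known targets of the transcription factor p53. They were taken by symbol from the 33694 genes counted. All 8 were among the 12794 genes detected in at least 5% of the cells kept, so each was tested in every comparison. Their levels were followed through the reprogramming of human fibroblasts to pluripotency, first in whole pools of cells by day. Then cells high in COL1A1, a fibroblast collagen gene, were set against cells high in POU5F1, a pluripotency gene.

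Cyclin-dependent kinases (CDKs) drive a cell through its cycle, and 2 families of small proteins hold them back. The INK4 family, to which the products of CDKN2A and CDKN2B belong, blocks CDK4 and CDK6, while the CIP/KIP family, to which the products of CDKN1A and CDKN1B belong, binds complexes of CDK2 with cyclins E and A. After DNA damage or oncogene activity p53 accumulates and induces CDKN1A, TP53I3, GDF15, BBC3 and its own antagonist MDM2. Both the p53 pathway and the CDKN2A locus are known as barriers to reprogramming.

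BJ cells, a line of newborn foreskin fibroblasts, were cultured in microfluidic chips at low oxygen. They were transfected nightly, up to day 8, with mRNAs for POU5F1, SOX2, KLF4, MYC, LIN28 and NANOG. A reprogramming medium was used from day 1 and a pluripotent stem cell medium from day 9. No untransfected cells of the later days are among the samples, so transfection, medium and time in culture cannot be told apart. D0 cells are the untreated fibroblasts (the control), and D3, D5, D7, D9, D11, D13 and D15 are transfected cells of the same line named by their day of harvest, all frozen before capture. Each day has 2 pools, A and B (n = 2). Each pool joins the cells of 4 chips, so that p-values measure the spread between such pools of 1 cell line. A pool is a mixture of cells at different stages. A change in a pool can come from fewer cells with a transcript or from fewer transcripts per cell.

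The 16 pools held 571 to 6142 cells after filtering (41975 of 44197 barcodes), and between 33181614 and 180056814 unique molecular identifiers (UMIs, counted transcripts) were summed per pool. Levels are counts per 1000000 UMIs of the pool or class (CPM), and they are not compared between genes. At D0 the 12 somatic markers summed to 11221 and 11403 CPM and the 11 pluripotent markers to 4.72 and 4.73 CPM, and at D15 they stood at 1241 and 1514 CPM and at 3720 and 4245 CPM. Of the 16 pools, pool A of D11 and pool B of D13 stood apart, because nearly every cell in them carried both COL1A1, the main fibroblast collagen, and POU5F1, the pluripotency factor. The 5th percentile over cells was 187 and 89.6 CPM for COL1A1, and 121 and 128 CPM for POU5F1. Counts of calls among the 8 genes and the lists that rest on these pools are also given without them. A further 6 pools were captured as 2 libraries each, which were added together, and between the libraries of 1 pool the levels of the 8 genes differed by a median of 0.34 and by up to 1.42 on the log2 scale over 48 pairs. At D9 the libraries of 1 pool also differed in their cells, with COL1A1-high cells at 0.699 and 23.4% in pool A and at 2.59 and 24.0% in pool B, and results from the library with more UMIs alone are given where they change a call. At most 41 barcodes, or 1.63% of the smaller library, were shared by any pair of libraries.

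Across whole pools, CDKN1A fell most from D0 to D15, and 5 of the 8 genes, namely CDKN1A, CDKN2A, TP53I3, MDM2 and CDKN1B, were lower at D15 than at D0. None of the 8 was higher. The courses differed. CDKN1A, CDKN1B, MDM2 and TP53I3 were highest at D0. CDKN2A, GDF15 and BBC3 were highest between D5 and D7. CDKN2B was highest at D11 and D13.

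**Figure D1:**
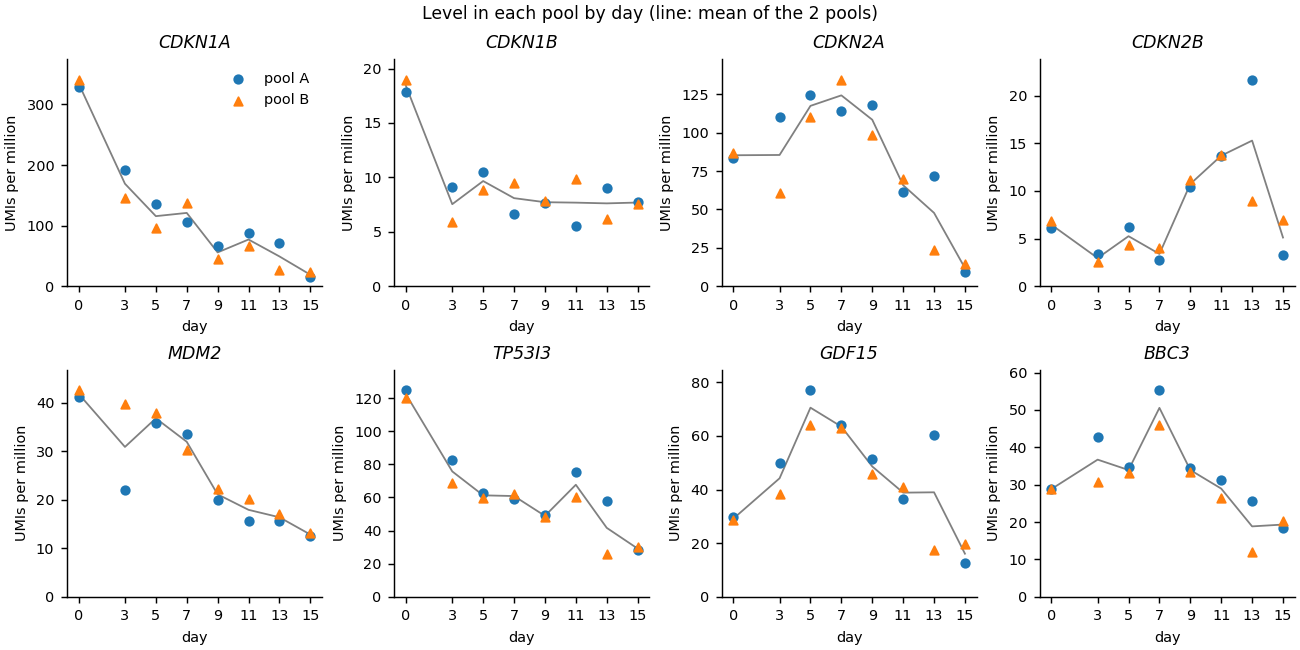
Level of each of the 8 genes in CPM (vertical axis, from 0, with its own scale for each gene) by day of harvest (horizontal axis), with circles for pool A, triangles for pool B and a line through the mean of the 2 pools. CDKN1A starts at 328 and 341 CPM and ends at 14.6 and 23.2 CPM, while CDKN2B peaks at 21.7 CPM in pool A of D13.

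CDKN1A encodes p21, the inhibitor that carries most of the p53-dependent arrest before DNA synthesis. It was at 328 and 341 CPM in pools A and B of D0, 192 and 146 CPM at D3, 136 and 95.3 CPM at D5, 105 and 137 CPM at D7. Later it was at 67.0 and 44.4 CPM at D9, 88.0 and 66.0 CPM at D11, 71.4 and 26.8 CPM at D13, and 14.6 and 23.2 CPM at D15. Both D0 pools stood above all other pools and both D15 pools below all others, with overlap between D7 and D5, between D11 and D9, and between D9 and D13. The mean CPM was 17.7 times higher at D0 than at D15 (log2 change −4.21 ± 0.42 (SE), adjusted p = 2e-06, edgeR's quasi-likelihood test with Benjamini-Hochberg adjustment, n = 2 pools a day).

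TP53I3 encodes a quinone oxidoreductase that p53 induces, and its course over the pools was the most like that of CDKN1A among the 8 genes (Pearson's r = 0.95 over the 16 pools, which share their libraries and cell mixtures). It was at 125 and 120.1 CPM at D0, 82.6 and 68.9 CPM at D3, 62.7 and 59.9 CPM at D5, 59.3 and 62.4 CPM at D7. Later it was at 49.4 and 48.3 CPM at D9, 75.3 and 60.1 CPM at D11, 57.7 and 25.6 CPM at D13, and 28.4 and 29.8 CPM at D15. The D0 pools stood apart above the rest, and D13 and D15 overlapped. D15 against D0 gave −2.14 ± 0.26 on the log2 scale (adjusted p = 1.31e-05 by edgeR).

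MDM2, the ubiquitin ligase that marks p53 for destruction, was at 41.1 and 42.6 CPM at D0, 22.1 and 39.7 CPM at D3, 35.7 and 37.8 CPM at D5, 33.6 and 30.3 CPM at D7. From D9 on it was at 20.05 and 22.2 CPM at D9, 15.7 and 20.1 CPM at D11, 15.6 and 17.2 CPM at D13, and 12.6 and 13.1 CPM at D15. The D0 pools were above all others and the D15 pools below all others, and only the pools of D3 disagreed widely. D15 against D0 gave −1.77 ± 0.26 (adjusted p = 7.59e-05 by edgeR).

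CDKN1B encodes p27, which restrains CDK2 in resting cells and is removed by the SKP2 ubiquitin ligase when they divide. Its level was set within the first days: 17.8 and 19.0 CPM at D0, then 9.15 and 5.91 CPM at D3, 10.5 and 8.81 CPM at D5, 6.67 and 9.50 CPM at D7. Later it was at 7.63 and 7.80 CPM at D9, 5.51 and 9.83 CPM at D11, 9.01 and 6.21 CPM at D13, and 7.78 and 7.59 CPM at D15. Only D0 stood apart, and every pair of neighbours in the order of the later days overlapped. D15 against D0 gave −1.32 ± 0.27 (adjusted p = 0.000832 by edgeR).

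CDKN2A encodes p16INK4A, a blocker of CDK4 and CDK6, and from another first exon ARF, which binds MDM2, and 3′ counts cannot tell these transcripts apart. It was at 83.8 and 86.9 CPM at D0, 110.3 and 60.8 CPM at D3, 125 and 110.3 CPM at D5, 114 and 135 CPM at D7. Later it was at 118 and 98.7 CPM at D9, 61.7 and 69.9 CPM at D11, 71.8 and 23.7 CPM at D13, and 9.43 and 14.1 CPM at D15. From D0 to D9 each day overlapped its neighbour in the order of levels, and the D15 pools were below all others. D15 against D0 gave −2.91 ± 0.40 (adjusted p = 3.32e-05 by edgeR), a 7.24-fold lower mean CPM.

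CDKN2B, the neighbour of CDKN2A, encodes p15INK4B, which TGF-beta signalling is known to induce. It alone had its peak late: 6.09 and 6.82 CPM at D0, 3.40 and 2.50 CPM at D3, 6.21 and 4.28 CPM at D5, 2.70 and 4.06 CPM at D7. From D9 on it was at 10.4 and 11.1 CPM at D9, 13.6 and 13.8 CPM at D11, 21.7 and 8.89 CPM at D13, and 3.32 and 6.90 CPM at D15. Both D9 and both D11 pools stood above every pool of D0 to D7, and the D15 pools overlapped those of D0. D15 against D0 gave −0.38 ± 0.37 (adjusted p = 0.385 by edgeR), and without pool A of D15 the value was 0.04.

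GDF15, a secreted cytokine that is induced by p53 and by the ATF4 and CHOP arm of the stress response, was at 29.7 and 28.5 CPM at D0, 49.9 and 38.5 CPM at D3, 77.0 and 64.1 CPM at D5, 64.1 and 62.9 CPM at D7. Later it was at 51.3 and 45.9 CPM at D9, 36.6 and 41.1 CPM at D11, 60.4 and 17.5 CPM at D13, and 12.5 and 19.6 CPM at D15. The 6 pools of D3 to D7 were all above the D0 pools, and the D15 pools were below them. BBC3, which encodes the cell death protein PUMA, was at 28.8 CPM in both D0 pools, 42.7 and 30.7 CPM at D3, 34.7 and 33.2 CPM at D5, 55.3 and 45.9 CPM at D7. From D9 on it was at 34.4 and 33.4 CPM at D9, 31.4 and 26.5 CPM at D11, 25.7 and 11.99 CPM at D13, and 18.3 and 20.4 CPM at D15. Both genes lay lower in both D15 pools than in both D0 pools. The share of all genes that did so was not counted, and the 26.7% called lower rests on another rule. At D3 against D0, 37.7% of all genes lay lower without overlap while 12.6% were called lower. Neither GDF15 (−0.92 ± 0.38, adjusted p = 0.0472) nor BBC3 (−0.64 ± 0.26, adjusted p = 0.0438) passed the threshold at D15 against D0 in edgeR. Without pool A of D11 and pool B of D13 both passed it, so that 7 of the 8 genes were then called, with 56.5% of all genes.

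A gene was called at an adjusted p below 0.01 and a log2 change beyond 0.25 either way. In D15 against D0, 5 of 8 members were called, all lower, while 53.4% of all genes tested were called either way and 26.7% were called lower. The median log2 change of the 8 was −1.55, against 0.01 over all genes tested. Other values moved with this comparison: the share of dividing cells (those with transcripts of genes used in mitosis) was 28.8 and 29.4% at D0 and 89.3 and 84.7% at D15, and COL1A1-high cells made up 71.0 and 82.1% at D0 and 2.63 and 0.664% at D15. The part of these shifts in the pool values was not tested here, and the D0 pools also serve in the comparison of D3 with D0.

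With each cell thinned to 5000 UMIs, CDKN1A was seen in 70.6% ± 0.5 of the cells at D0 and 7.34% ± 2.70 at D15 (mean ± SD, n = 2 pools). CDKN2A was seen in 33.3% ± 1.4 of the cells at D0, 45.0% ± 1.3 at D7 and 4.87% ± 1.44 at D15. GDF15 went from 11.9% ± 0.1 at D0 to 23.7% ± 1.4 at D5 and 5.38% ± 3.40 at D15.

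By D3, after the first transfections, 1 of the 8 genes was called by the same rule (25.6% of all genes were called in this comparison). That gene was CDKN1B, which fell by 1.33 ± 0.27 on the log2 scale (adjusted p = 0.00184 by edgeR), a 2.44-fold lower mean CPM. CDKN1A (−1.03, adjusted p = 0.0414), CDKN2B (−1.17, adjusted p = 0.0258) and TP53I3 (−0.73, adjusted p = 0.0345) were lower in both D3 pools than in both D0 pools but did not pass the threshold in edgeR. The same held for MDM2 (−0.45, adjusted p = 0.177), while GDF15 (0.56, adjusted p = 0.247) and BBC3 (0.31, adjusted p = 0.36) lay higher in both D3 pools and CDKN2A overlapped (−0.05, adjusted p = 0.933). In this comparison 37.7% of all genes tested lay lower and 33% higher without overlap. The call of CDKN1B was lost without either D0 pool, without pool B of D3 or with only the 4 pools of these days, where 11.3 to 11.7%, 23.7% and 0 of 12766 genes were called, and leaving out either D13 pool gave 3 calls and 30.5 or 30.6% of all genes. Without pool A of D11 and pool B of D13, TP53I3 (−0.72, adjusted p = 0.00139 by edgeR) was called beside CDKN1B, with 29.2% of all genes.

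Between D3 to D7 (6 pools) and D9 to D15 (8 pools), 7 of the 8 genes changed, 6 down and CDKN2B up, where 43.5% of all genes were called, 22.5% lower and 21% higher. CDKN1A fell by 1.61 ± 0.20 (log2, adjusted p = 1.47e-05 by edgeR) and its groups did not overlap, with a mean of 135 CPM before and 50.2 CPM after. CDKN2A fell by 1.31 ± 0.20 (adjusted p = 9.68e-05), MDM2 by 1.02 ± 0.14 (adjusted p = 3.6e-05), GDF15 by 0.87 ± 0.20 (adjusted p = 0.00244), BBC3 by 0.74 ± 0.14 (adjusted p = 0.000501) and TP53I3 by 0.59 ± 0.13 (adjusted p = 0.00223), all by edgeR. CDKN2B rose by 1.43 ± 0.21 (adjusted p = 7.3e-05 by edgeR), from a mean of 3.86 CPM to 11.2 CPM. CDKN1B gave −0.16 ± 0.14 (adjusted p = 0.35). The same count of 7 was found with each of the 16 pools left out in turn (37.7 to 47.7% of all genes called), and without pool A of D11 and pool B of D13 (41.9%).

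Step by step between adjacent days, 1 of 56 gene and step pairs was called, namely CDKN1B from D0 to D3. Of all genes, 25.6% were called from D0 to D3, 3.56% to D5, 2.06% to D7, 7.37% to D9, 4.09% to D11, 0.117% to D13 and 0.086% to D15. The nearest misses were CDKN2B from D7 to D9 (1.63 ± 0.38, adjusted p = 0.012) and CDKN2A from D13 to D15 (−1.94 ± 0.38, adjusted p = 0.0219, edgeR). Taking every adjusted p under 0.05, whatever the size of the change, gave 7, and DESeq2 gave 5, as did edgeR without pool A of D11 and pool B of D13. Over the 7 steps together 6.13% of all gene and step pairs were called, and 11.7, 11 and 6.73% under these settings. For 6 of the 8 genes the pools of D13 differed more than those of any other day: pool A stood above pool B by 2.66 times for CDKN1A, 3.03 times for CDKN2A, 2.44 times for CDKN2B, 3.45 times for GDF15, 2.25 times for TP53I3 and 2.14 times for BBC3. For MDM2 the widest gap was at D3 and for CDKN1B at D11.

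To separate cell types, cells of D9 to D15 were put in 2 classes by their own counts. COL1A1-high cells had COL1A1 at 500 CPM or more and POU5F1 below 50 CPM, and POU5F1-high cells had POU5F1 at 100 CPM or more and COL1A1 below 100 CPM. In all, 4 pools held at least 50 cells of each class (both pools of D9, pool B of D11 and pool A of D13), with 1530 COL1A1-high and 3469 POU5F1-high cells. In these pools 186 cells lay within 20% either side of the limit for high COL1A1, and 154 of that for high POU5F1, inside or just outside the class. The classes are ranges of 2 genes and not types, and 2073 cells over all pools were high in both. Leaving out these 2 genes, 10 of 11 markers of the somatic list were called higher in COL1A1-high cells and 10 of 10 of the pluripotent list in POU5F1-high cells: LUM, a fibroblast proteoglycan, had a median over the pools of 832 against 6.40 CPM. POU5F1 and, among the pluripotent markers, SOX2, LIN28A and NANOG belong to the transfected factors. Transfection ran up to day 8, so delivered RNA may be counted in the D9 pools, and its part was not tested. The median depth per cell was 33920 to 54291 UMIs in COL1A1-high cells and 52421 to 73046.5 UMIs in POU5F1-high cells, so levels are given as CPM.

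Within the same pools, the COL1A1-high cells held far more of CDKN1A, CDKN2A and CDKN2B, and moderately more of TP53I3 and GDF15. CDKN1A was at 205, 147, 188 and 269 CPM in the COL1A1-high cells of pools A and B of D9, pool B of D11 and pool A of D13, and at 19.8, 17.0, 12.9 and 11.8 CPM in the POU5F1-high cells beside them. CDKN2A was at 181, 213, 190.0 and 275 CPM against 51.2, 43.8, 14.6 and 6.25 CPM. CDKN2B was at 35.6, 48.9, 40.3 and 75.7 CPM against 1.70, 2.08, 2.26 and 1.28 CPM. For all of these 3 inhibitors the classes did not overlap, and the gap was widest in pool A of D13.

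The 3 inhibitors differed by 3.73 ± 0.23 (CDKN1A, adjusted p = 4.73e-05), 3.27 ± 0.61 (CDKN2A, adjusted p = 0.00339) and 4.73 ± 0.30 (CDKN2B, adjusted p = 4.87e-05) on the log2 scale, by edgeR with the pool as a term. TP53I3 was at 69.5, 68.7, 112 and 141 CPM in COL1A1-high cells and at 37.5, 38.8, 39.2 and 32.5 CPM in POU5F1-high cells (1.35 ± 0.21, adjusted p = 0.00164 by edgeR). GDF15 was at 80.5, 90.1, 60.9 and 90.9 CPM against 34.1, 29.4, 26.3 and 38.1 CPM (1.35 ± 0.11, adjusted p = 0.000132 by edgeR). Neither gene's classes overlapped, and 28% of all genes tested were higher in COL1A1-high cells without overlap.

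MDM2, CDKN1B and BBC3 did not pass. MDM2 was at 20.7, 22.7, 32.6 and 23.1 CPM in COL1A1-high cells and at 17.5, 21.1, 14.1 and 13.2 CPM in POU5F1-high cells, higher in 4 of 4 pools but with overlap (0.61 ± 0.19, adjusted p = 0.0279 by edgeR). CDKN1B was at 7.47, 7.65, 9.24 and 9.77 CPM against 7.35, 7.34, 8.90 and 7.74 CPM (0.13 ± 0.12, adjusted p = 0.364 by edgeR). BBC3 was at 21.2, 24.4, 29.6 and 21.4 CPM against 38.4, 33.7, 23.1 and 27.4 CPM, lower in COL1A1-high cells in 3 of 4 pools (−0.31 ± 0.19, adjusted p = 0.181 by edgeR).

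**Figure D2:**
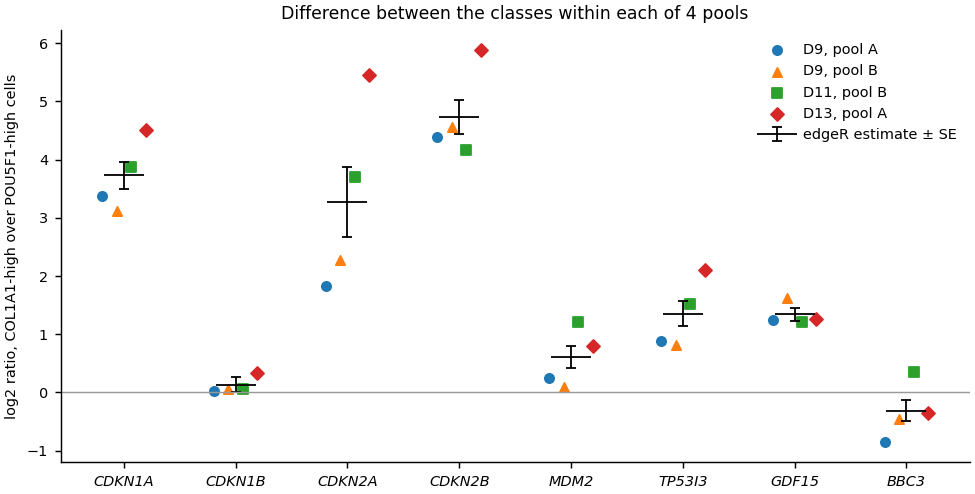
log2 ratio of the level in COL1A1-high cells over that in POU5F1-high cells (vertical axis) for each of the 8 genes, with 1 symbol for each of the 4 pools that hold both classes and a black bar with whiskers for the edgeR estimate ± SE. CDKN1A, CDKN2A and CDKN2B lie between 1.83 and 5.89 in every pool, TP53I3 and GDF15 between 0.82 and 2.11, and CDKN1B near 0.

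So 5 of 8 members were called, all higher in COL1A1-high cells, beside 53.3% of all genes called either way and 26.6% called higher. The median of the 8 was 1.35 on the log2 scale, against −0.02 over all genes tested. MDM2 was called, with 0.75, where only the library with more UMIs of each pool was used, and with 0.98 in the pools of D11 and D13 alone. Without pool B of D11, CDKN2A (3.10, adjusted p = 0.022) and TP53I3 (1.30, adjusted p = 0.0122) were no longer called by edgeR, which left 3 calls and 34.7% of all genes. With each of the 4 pools left out in turn, the value of CDKN2A lay between 2.6 and 3.76. The alternative classes by the ratio of the 2 genes, chosen after the data were seen, took in 7 pools, among them pool A of D11 and pool B of D13, and gave 6 calls among the 8 genes and 70.8% of all genes. Without these 2 pools they gave 6 calls and 61.6%. They had a median CDKN1A of 187 against 13.9 CPM, CDKN2A of 183 against 15.0 CPM and CDKN2B of 46.9 against 1.81 CPM.

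Droplets also catch free RNA, whose part in the levels of POU5F1-high cells was not tested. For comparison, the matrix genes LUM, DCN, COL3A1, COL1A2 and FN1 were 124, 108, 55.4, 19.5 and 12.8 times higher in the COL1A1-high cells of a pool (median of the 4 pools), in classes that were cut on the level of another matrix gene, COL1A1. The same ratio was 12.3 for CDKN1A, 7.94 for CDKN2A, 22.2 for CDKN2B, 2.37 for GDF15 and 2.30 for TP53I3. With each cell thinned to 5000 UMIs, CDKN1A was seen in 49.1% ± 9.6 of COL1A1-high cells and 6.69% ± 2.11 of POU5F1-high cells (mean ± SD of 4 pools), CDKN2A in 54.8% ± 3.8 and 11.9% ± 8.9, and CDKN2B in 19.0% ± 5.0 and 0.816% ± 0.439. LUM was seen in 3.63% ± 1.01 of the POU5F1-high cells. TP53I3 was seen in 33.5% ± 7.9 against 16.7% ± 1.3, GDF15 in 23.2% ± 2.5 against 10.1% ± 1.6, MDM2 in 11.6% ± 1.4 against 7.79% ± 1.86, BBC3 in 11.7% ± 3.3 against 12.97% ± 2.4, and CDKN1B in 4.55% ± 0.46 against 4.23% ± 0.95.

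Followed by day in COL1A1-high cells, CDKN2A, CDKN2B and GDF15 were higher late than at D0, while CDKN1A, CDKN1B and MDM2 were lower. The same limit did not take matched cells: it took 71.0 and 82.1% of the D0 cells and 12.5 to 21.5% in the 4 late pools. The median COL1A1 over all cells of the D0 pools was 656 and 789 CPM, and over the late COL1A1-high cells 2460 CPM. These are not like measures, since the D0 medians also take in cells below the limit. The part of the unmatched cells in the results was not tested. CDKN2A was at 85.7 and 89.2 CPM in the COL1A1-high cells of D0, between 64.7 and 141 CPM in the 6 pools of D3 to D7, and between 181 and 275 CPM in the 4 pools of D9 to D13. CDKN2B was at 6.35 and 7.015 CPM at D0, between 3.58 and 8.00 CPM from D3 to D7, and between 35.6 and 75.7 CPM later. GDF15 was at 29.9 and 28.9 CPM at D0, between 35.8 and 69.2 CPM from D3 to D7, and between 60.9 and 90.9 CPM later. The late cells of this class thus held more of all 3 than any D0 pool, without overlap, as did 37.5% of all genes tested.

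CDKN1A in these cells went from 341 and 351 CPM at D0 to between 104 and 208 CPM at D3 to D7 and between 147 and 269 CPM later, so that both D0 pools stayed above all others. MDM2 was at 42.7 and 43.9 CPM at D0 and between 20.7 and 32.6 CPM in the 4 late pools. CDKN1B was at 18.03 and 19.3 CPM at D0 and between 7.47 and 9.77 CPM late. These genes, and BBC3 (30.2 and 30.0 CPM at D0, between 21.2 and 29.6 CPM late), were lower in every late pool than in both D0 pools, as were 26.9% of all genes tested, while TP53I3 overlapped (127 and 122 CPM at D0, between 68.7 and 141 CPM late).

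Tested over the 12 pools with at least 50 such cells, COL1A1-high cells of D9 to D13 against those of D0 gave 6 calls among the 8 genes (31.3% of all genes were called, 16.3% higher and 15% lower). CDKN2B rose by 2.79 ± 0.21 (adjusted p = 6.92e-06), GDF15 by 1.28 ± 0.14 (adjusted p = 7.44e-05) and CDKN2A by 1.19 ± 0.21 (adjusted p = 0.0012) on the log2 scale by edgeR. CDKN1B fell by 1.21 ± 0.21 (adjusted p = 0.00104), MDM2 by 0.89 ± 0.22 (adjusted p = 0.00683) and CDKN1A by 0.86 ± 0.20 (adjusted p = 0.00604). In edgeR BBC3 (−0.43 ± 0.15, adjusted p = 0.0346) and TP53I3 (−0.40 ± 0.13, adjusted p = 0.0266) did not pass. The count fell to 2, CDKN2B and GDF15, without either D0 pool, and rose to 8 without either D3 pool. The share of all genes called moved alike, to 14.3 or 14.4% without a D0 pool and 43.9% without a D3 pool. The 11 pluripotent markers together stood at 4.53 and 4.86 CPM in the COL1A1-high cells of D0 and at 136 to 175 CPM in the late ones, 11 of 11 higher, and the part of this in the results was not tested.

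**Figure D3:**
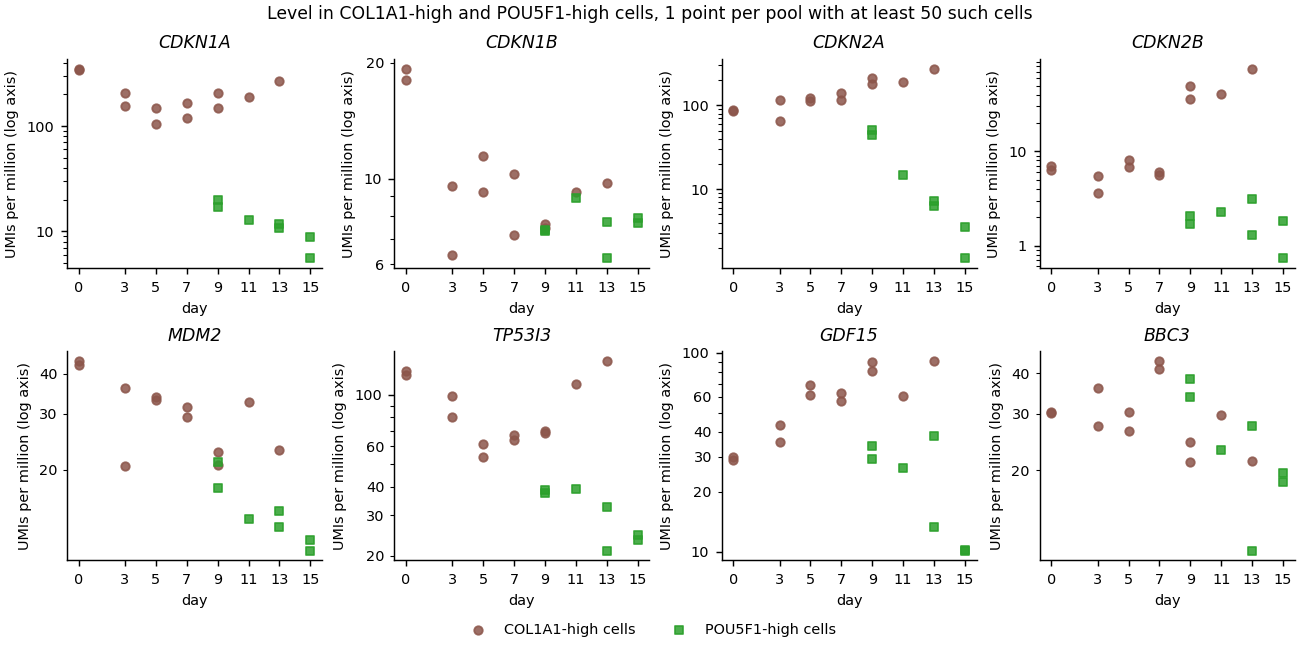
Level of each gene in CPM (vertical axis, logarithmic) by day (horizontal axis) in COL1A1-high cells (circles) and POU5F1-high cells (squares), with 1 point for each pool that has at least 50 such cells. In COL1A1-high cells CDKN2A reaches 275 CPM and CDKN2B 75.7 CPM at D13, while in POU5F1-high cells CDKN2A goes from 51.2 and 43.8 CPM at D9 to 1.495 and 3.57 CPM at D15.

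In POU5F1-high cells 6 of the 8 genes lay lower in both D15 pools than in both D9 pools, as did 42.6% of all genes tested. The limits took 34.3 and 44.6% of the cells in the D9 pools and 79.9 and 56.3% in the D15 pools. The part of this in the values, and that of free or delivered RNA, was not tested. CDKN2A was at 51.2 and 43.8 CPM at D9, 14.6 CPM in pool B of D11, 6.25 and 7.29 CPM at D13, and 1.495 and 3.57 CPM at D15. CDKN1A was at 19.8 and 17.0 CPM at D9, 12.9 CPM at D11, 11.8 and 10.8 CPM at D13, and 5.54 and 8.83 CPM at D15. MDM2 (17.5 and 21.1 CPM at D9, 12.03 and 11.2 CPM at D15), TP53I3 (37.5 and 38.8 CPM, then 23.3 and 24.7 CPM), GDF15 (34.1 and 29.4 CPM, then 10.2 and 10.1 CPM) and BBC3 (38.4 and 33.7 CPM, then 18.4 and 19.6 CPM) were the others. CDKN1B lay higher (7.35 and 7.34 CPM, then 7.91 and 7.69 CPM), and CDKN2B overlapped (1.70 and 2.08 CPM, then 0.729 and 1.81 CPM).

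In a test chosen after these values were seen, CDKN2A was the only one of the 8 called by edgeR between D9 and D15 in POU5F1-high cells (−4.17 ± 0.42 on the log2 scale, adjusted p = 0.00203 by edgeR, 7 pools), where 8.15% of all genes were called, and DESeq2 called 3 of the 8 and 22.3% of all genes. CDKN1A (−1.31 ± 0.27, adjusted p = 0.0154), GDF15 (−1.60 ± 0.43, adjusted p = 0.0342) and MDM2 (−0.70 ± 0.20, adjusted p = 0.0439) did not pass in edgeR. The call of CDKN2A was lost without any 1 of the D9 and D15 pools (values between −4.96 and −3.69, adjusted p between 0.0203 and 0.0297), fits in which 0 of 12794 genes were called. Leaving out either D13 pool gave 6 calls, with 43.8 or 44.8% of all genes. Whether the gap between the classes grew from D9 to D11 and D13 was also tested after the fact, and none of the 8 passed (CDKN2A 2.40 ± 0.51, adjusted p = 0.0536 by edgeR), with 0.00782% of all genes called and none of the 8 called by DESeq2, which called 4.35% of all genes.

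Cells with transcripts of mitotic genes were compared with cells of the same pool in which none was seen. Each cell was thinned to 5000 UMIs and counted as dividing with at least 2 UMIs over MKI67, TOP2A, CENPF, CCNB1, UBE2C, TPX2, BIRC5 and CDK1, and as non-dividing with 0, which gave 23979 and 11403 cells and left 6593 with 1 UMI in neither group. Before thinning the non-dividing cells still held 62.8 to 357 CPM (median 124) of these 8 genes together. In the 15 pools with at least 50 cells of each, 7 of the 8 genes were lower in dividing cells (54.9% of all genes were called, 28.6% lower). Without pool A of D11 and pool B of D13, 5 were called (51.3% of all genes), and CDKN2A (−0.94, adjusted p = 0.028) and MDM2 (−0.33, adjusted p = 0.0226) were not, by edgeR. CDKN1A was lower in 15 of 15 pools, at 12.3 to 319 CPM (median 85.7) in dividing and 99.9 to 360 CPM (median 171) in non-dividing cells. CDKN2B, TP53I3 and GDF15 were also lower in 15 of 15 pools, CDKN2A in 13, BBC3 in 12 and MDM2 in 10.

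The log2 differences were −1.97 ± 0.24 for CDKN2B (adjusted p = 2.08e-06), −1.38 ± 0.28 for CDKN1A (adjusted p = 0.000344), −1.11 ± 0.33 for CDKN2A (adjusted p = 0.00606) and −0.88 ± 0.09 for TP53I3 (adjusted p = 1.4e-07) by edgeR with the pool as a term. Smaller ones were seen for GDF15 (−0.76 ± 0.15, adjusted p = 0.000176), MDM2 (−0.37 ± 0.11, adjusted p = 0.00548) and BBC3 (−0.29 ± 0.07, adjusted p = 0.00106). CDKN1B, whose protein is regulated largely by degradation, gave −0.03 ± 0.05 (adjusted p = 0.541 by edgeR) and was lower in 8 of 15 pools. With the pool left out of the fit 3 of the calls held, those of CDKN2B, TP53I3 and GDF15, and 21.3% of all genes were called.

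The kinds of cell moved with this comparison. The 12 somatic markers summed to a median of 3630 CPM (range 887 to 9706) in dividing and 8101 CPM (range 6280 to 13781) in non-dividing cells, and 10 of 12 were lower in dividing cells. The comparison was also made in COL1A1-high cells alone, in 11 pools, where 35.8% of all genes were called. There CDKN2B gave −1.14 (adjusted p = 7.59e-06) and was lower in 11 of 11 pools, TP53I3 gave −0.56 (adjusted p = 2.12e-07, 11 of 11 pools), GDF15 −0.37 (adjusted p = 8.61e-05, 10 of 11), CDKN1A −0.31 (adjusted p = 2.92e-05, 9 of 11) and BBC3 −0.30 (adjusted p = 0.00143, 9 of 11), all by edgeR. CDKN2A (−0.22, adjusted p = 0.0665, 4 of 11 pools lower), MDM2 (−0.16, adjusted p = 0.0494) and CDKN1B (−0.04, adjusted p = 0.953) did not pass. Somatic markers still moved within these cells: 8 of 12 were called lower and 1, TWIST1, higher (median −0.63), from SNAI2 at −1.06 to S100A4 at −0.52 among those lower, with COL1A1 itself at −0.64. These 8 fell by more than GDF15, CDKN1A and BBC3 did, and their part in the result was not tested. In POU5F1-high cells no pool had 50 non-dividing cells, and the share of dividing cells was 83.4 to 91.4% in the 4 pools with both classes, against 13.4 to 29.1% in their COL1A1-high cells.

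**Figure D4:**
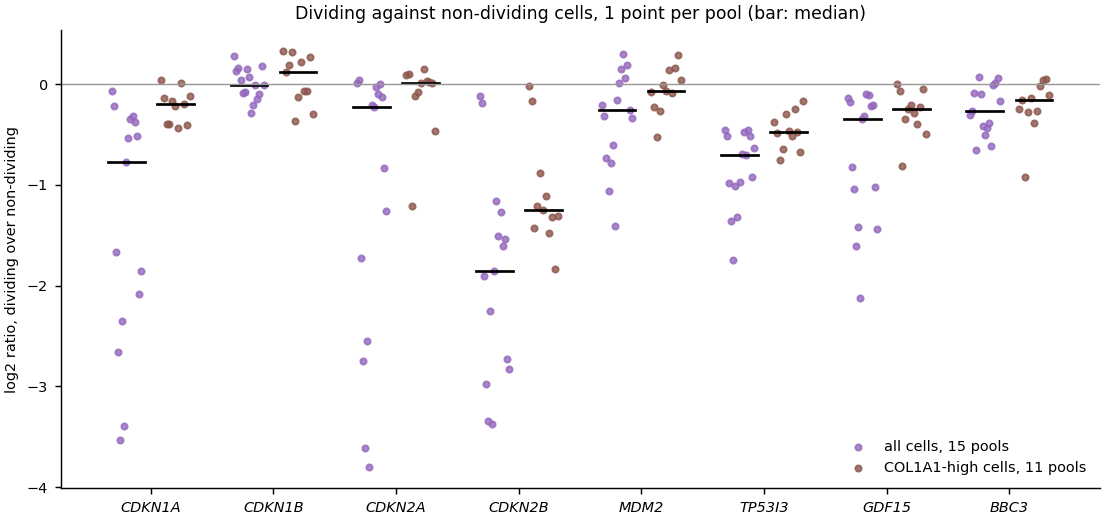
log2 ratio of the level in dividing over non-dividing cells (vertical axis) for each gene, with 1 point per pool over all cells (left cloud, 15 pools) and over COL1A1-high cells alone (right cloud, 11 pools), and bars at the medians. For CDKN1A the median goes from −0.78 over all cells to −0.20 within COL1A1-high cells, and for CDKN2B from −1.85 to −1.25.

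The other genes of the pathway were read from lists. Of 20 further p53 targets in arrest and repair, 13 were lower and none higher at D15 than at D0 (median −1.62 on the log2 scale, 26.7% of all genes lower), with BTG2, an antiproliferative gene, the lowest of those called (−3.27 ± 0.33, adjusted p = 2.46e-06 by edgeR). In COL1A1-high against POU5F1-high cells 9 of the 20 were higher and 2 lower (median 0.71), a share called that is near the 53.3% of all genes, from SUSD6 (3.19 ± 0.23) to AEN, a nuclease (−0.85 ± 0.12). In D9 to D15 against D3 to D7, 12 were lower (22.5% of all genes) and 1, RRM2B, a subunit of ribonucleotide reductase, was higher (0.78 ± 0.12). Within COL1A1-high cells, late against D0, 4 were higher and 5 lower (median −0.46, 31.3% of all genes called), from PLK2 (1.25 ± 0.15) to XPC, a DNA repair factor (−1.62 ± 0.26).

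The p53 targets in cell death were mixed. Of 9 tested (TP53AIP1, the tenth listed, fell short of the filter), 2 were higher and 4 lower at D15 than at D0 (53.4% of all genes called), with PMAIP1, which encodes the BH3-only protein NOXA, at 1.62 ± 0.19 and FAS, the death receptor, at −4.73 ± 0.49 on the log2 scale. Between the classes 3 were higher and 3 lower in COL1A1-high cells (53.3% of all genes called), with FAS at 3.32 ± 0.24 and PMAIP1 at −1.30 ± 0.19. BBC3, which belongs to the same BH3-only group as PMAIP1, had −0.31 ± 0.19 there and did not pass.

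The p53 regulators (9 genes) were mixed. Of them, 3 were higher and 1 lower at D15 than at D0 (median 0.26 on the log2 scale), a share called below the 53.4% of all genes, namely CHEK1, CHEK2 and USP7 (1.65 ± 0.33) up and the phosphatase PPM1D, itself a p53 target, down (−1.26 ± 0.27, edgeR). In COL1A1-high against POU5F1-high cells 2 were higher and 3 lower (median 0.13, 53.3% of all genes called), with the checkpoint kinase CHEK2 the lowest (−2.03 ± 0.21) and HIPK2 the highest (0.95 ± 0.19). CHEK1 was picked for naming after its values were seen.

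Of the other CDK inhibitors and pocket proteins (7 genes), 4 were lower and none higher at D3, beside 12.6% of all genes lower. At D15 against D0, 4 were again lower and none higher (median −1.27), beside 26.7% of all genes lower. CDKN2C, the p18INK4C gene of the INK4 family, had the lowest change of the list (−7.65 ± 0.35 at D15 against D0) and the largest difference between the classes (5.36 ± 0.34). Its levels in the 4 pools with both classes were low, at 3.70 to 13.2 CPM in COL1A1-high cells. In POU5F1-high cells they were near the floor, at 0.0217 to 0.419 CPM. CDKN3, a phosphatase that peaks in dividing cells, was lower in COL1A1-high cells (−1.26 ± 0.25). Within COL1A1-high cells, late against D0, 5 of the 7 were lower and none higher (15% of all genes lower), with CDKN2C at −2.79 ± 0.19, while its relatives CDKN2A and CDKN2B were higher there.

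Of the 10 partners that the inhibitors bind, CDKs, cyclins and SKP2, 5 were higher and none lower at D3 (13.1% of all genes higher), with CCNE2, a cyclin E, at 3.47 ± 0.43. At D15 against D0, 3 were higher and 1 lower, a share called below the 53.4% of all genes, from CCND2, a cyclin D, at 6.75 ± 0.31 to CCND1 at −1.10 ± 0.26. The ATF4 and CHOP genes (10 genes), the other arm that induces GDF15, were 6 higher and 1 lower at D15 against D0 (53.4% of all genes called). They were 6 higher and none lower within COL1A1-high cells late against D0 (31.3% called), with PSAT1, an enzyme of serine synthesis, at 2.24 ± 0.33. GDF15 itself had 1.28 ± 0.14 in the latter comparison and −0.92 ± 0.38 (not called) in the former. Between the classes, where 53.3% of all genes were called, 2 of these 10 were higher and 3 lower in COL1A1-high cells, from ATF3 (1.59 ± 0.29) to PSAT1 (−2.54 ± 0.23), while GDF15 was higher. These 10 genes together summed to a median of 475 CPM in COL1A1-high and 833 CPM in POU5F1-high cells. That sum does not give the direction of each gene, since those called went both ways. ATF3 was higher in COL1A1-high cells in 4 of 4 pools (median 23.2 against 8.11 CPM), as GDF15 was. ATF4 itself overlapped between the classes (median 218 against 226 CPM) and was higher in COL1A1-high cells in 1 pool and lower in 3.

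Without pool A of D11 and pool B of D13 the list counts were close to these. At D15 against D0, 14 of the further targets in arrest and repair were lower, 4 partners were higher and 1 lower, 7 of the ATF4 and CHOP genes were higher and 1 lower, and the other lists described gave the same counts. At D3, 6 partners were higher, and the other CDK inhibitors and pocket proteins gave the same count. In D9 to D15 against D3 to D7, 14 of the further targets were lower and 1 higher.

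**Figure D5:**
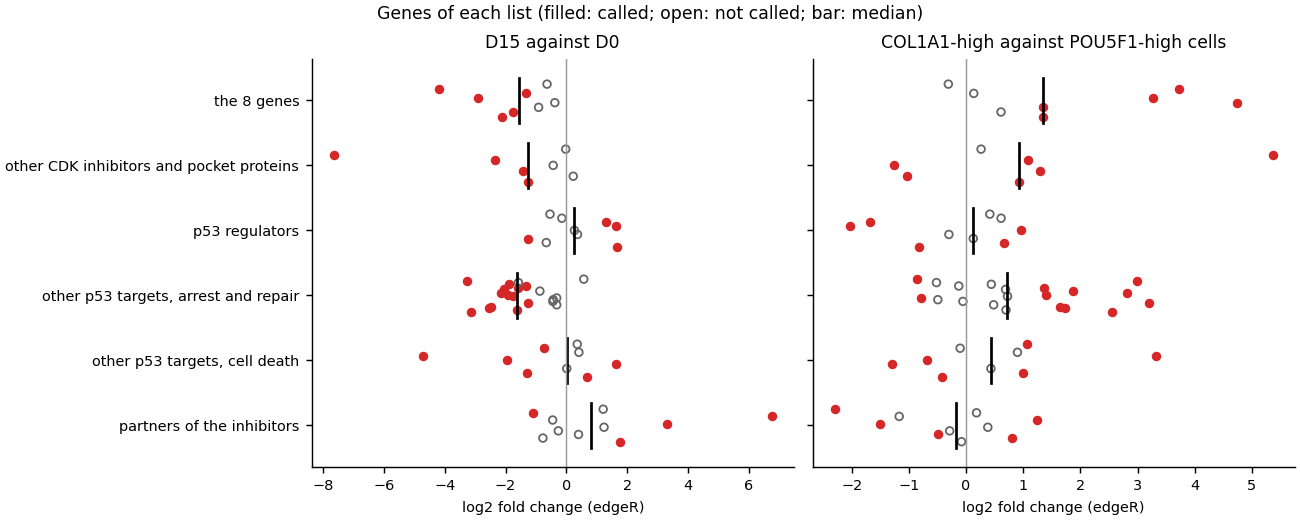
log2 change (horizontal axis) of each gene of 6 lists (rows) at D15 against D0 (left) and in COL1A1-high against POU5F1-high cells (right), with filled points for genes called, open points for genes not called and a bar at the list's median. The medians of the 8 genes are −1.55 and 1.35, and those of the 20 further p53 targets in arrest and repair are −1.62 and 0.71.

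The genes whose level, as log2(CPM + 1), ran most like that of a member over the 16 pools, of those reported here and among 7052 genes with a mean of at least 10 CPM, were as follows. For CDKN1A they were TRADD (Pearson's r = 0.99), WDR45 and IL10RB (0.99 each), for TP53I3 ACAA1, RNH1 and RRAS (0.98 each), and for MDM2 ZFHX4 and CCDC102B (0.96 each). For CDKN2A they were SMYD2 (0.98), ARSJ (0.97) and EMP1 (0.96), for CDKN2B BLCAP (0.94), LITAF (0.92) and PLOD2 (0.91). For GDF15 they were PLK2 (0.96), TXNRD2 and SSR2 (0.95 each), for BBC3 CCM2 (0.96), GTPBP6 and FNDC4 (0.94 each). For CDKN1B they were KLF4 (0.94), ZFP36L2 and SAV1 (0.92 each). PLK2 is a p53 target and KLF4 is among the transfected factors. Between members, r ranged from −0.46 (CDKN2B and MDM2) to 0.95 (CDKN1A and TP53I3), with 0.89 for CDKN2A and GDF15. The points share libraries and cell mixtures, so these values are descriptions.

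In the gencode annotation of GRCh38, CDKN1A lies on chromosome 6 (36676460 to 36687337, plus strand). The others lie on chromosome 12 (CDKN1B, 12685498 to 12722369, and MDM2, 68808177 to 68845544, both plus), chromosome 9 (CDKN2A, 21967752 to 21995301, and CDKN2B, 22002903 to 22009305, both minus), chromosome 2 (TP53I3, 24077433 to 24085861, minus) and chromosome 19 (GDF15, 18374731 to 18389176, plus, and BBC3, 47220822 to 47232766, minus). CDKN2A and CDKN2B are overlapped on the other strand by CDKN2B-AS1, CDKN1B by GPR19, TP53I3 by FAM228B and MDM2 by the gene CPM. MDM2 also overlaps a long non-coding RNA gene, ENSG00000256325, on its own strand, and CDKN2A, CDKN2B and MDM2 each overlap an unnamed one on the other strand, all of them counted. How the counts treat reads in such overlaps is not stated in the sources used here. The RefSeq promoter windows (GRCh38.p14, 250 bases before to 50 after a start site) held 12 start sites of the 8 genes. None of the 12 held the p53 decamer on either strand, the consensus to which each pair of p53 subunits binds. It is its own reverse complement and was found in 2329 of all 35116 windows (6.63%), so no promoter sequence is printed. The windows do not reach far upstream or into introns.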

How the data were processed

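Single-cell 3′ libraries (10x) of BJ cells were counted by the authors with Cell Ranger 2.2 against human hg38, and the deposited values are raw UMI counts per gene and barcode. In all 22 libraries, barcodes under 1000 detected genes or over 10% of UMIs from mitochondrial genes were removed. Libraries of 1 pool were added, giving 16 pools, and no doublet caller was run. Counts were summed per pool, or per pool and class, and tested with edgeR 4.0.16 (quasi-likelihood, TMM, R 4.3.3), with Benjamini-Hochberg adjustment over all 12794 genes. Day comparisons used 1 fit of all pools, and comparisons between cell classes had the pool as a term. The genes and lists were chosen with earlier results of these data known. Named list genes are those with the largest called change in each direction, and exceptions are stated. Some genes are not reported here, and list counts leave them out. The classes by ratio, the library with more UMIs alone, the fits without pool A of D11 and pool B of D13 and the tests within POU5F1-high cells were added after the data were seen. DESeq2 1.42.0, other filters and limits, thinning and left-out pools were the alternatives, and the scripts were tested on simulated data. There a 2-fold change was called in 16 of 50 altered genes for D3 against D0. Between COL1A1-high and POU5F1-high cells it was called in 25 of 50, so a gene not called may still differ. Pools with the same letter deviated together in some pairs of days and not in others (28 pairs, correlation −0.447 to 0.817, median −5.3e-06, 10 of them over 0.1). The labels do not say that pools of 1 letter share a chip or culture across days, so the letter is no block in the main fits. Counts with the letter as a block are given below.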

Additional observations from a re-analysis of the deposited data

Results flagged for a closer look

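Of 32 groups of 4 to 8 values tested, 1 held a value far from the others, no more than chance gives at about 1 in 20 groups. Each group joins pools of more than 1 day. CDKN2A in pool B of D3 was at 60.8 CPM, while the other pools of D3 to D7 lay between 110 and 135 CPM, and the gap was 0.671 of the group's range. Without this pool the change from D0 to D3 was 0.28 on the log2 scale, against −0.05 with it.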

How the results depend on the processing

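Of 1208 values of single genes under other settings, 1104 kept their direction and their side of the threshold, 50 lost the threshold, 46 gained it and 8 changed sign; of the 31 called values none changed sign. The 8 are CDKN2A at D3 against D0 (0.13 with no filter, 0.03 with only the 4 pools, from −0.47 to 0.28 with 1 pool left out, the latter without pool B of D3), CDKN2B at D15 against D0 (from −1.03 to 0.04 with 1 pool left out, the latter without pool A of D15), and CDKN1B between the classes (−0.01 with the limits doubled, −0.04 by ratio without D9) and in dividing cells (0.05 with no filter, 0.05 at 4 or more UMIs). With no filter the median of all genes tested moved from 0.01 to −0.21 at D15 against D0. Calls at D3 against D0 were 4 at an adjusted p below 0.05, where 40.3% of all genes passed, and 2 with DESeq2 (34.1%). They were 2 without pool A of D11 and pool B of D13 (29.2%) and 0 with only the 4 pools (0%). Adjacent days gave 7 at an adjusted p below 0.05 (11.7% of gene and step pairs), 5 with DESeq2 (11%) and 5 with no filter (7.48%). They gave 5 without pool A of D11 and pool B of D13 (6.73%) and 2 after thinning (5.21%), a count that moved with the random draw. POU5F1-high cells of D15 against D9 gave 3 with DESeq2 (22.3% of all genes). With 1 pool left out, D9 to D15 against D3 to D7 gave 7 calls throughout (37.7 to 47.7% of all genes called). The classes gave 3 to 5 (34.7 to 49.8%) and dividing cells 5 to 7 (52 to 55.8%). For the other comparisons some of these fits left 1 pool in a group compared, so their counts are not given here. In late COL1A1-high cells CDKN1A (limits doubled, adjusted p = 0.0104) and MDM2 (limits halved, adjusted p = 0.0113) were lost in edgeR. The cause of these changes was not tested.

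With the pool letter as a replicate block, counts were 1 (D3 against D0, 28.2% of all genes called), 7 (D9 to D15 against D3 to D7, 45.7%), 5 (D15 against D0, 55.5%), 1 (adjacent days, 6.61% of gene and step pairs) and 6 (late COL1A1-high cells, 31.0%); without the pool as a block, 5 (classes, 46.6%) and 3 (dividing cells, 21.3%). Dividing cells within POU5F1-high cells gave no value, since 0 pools had enough cells. The depth was 23717 to 80168 median UMIs per cell of a pool.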
